A study of Mus musculus with 24 samples.

Results

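The report covers 6 genes of the Notch pathway: the receptors Notch1 and Notch2 and the target genes Hes1, Dtx1, Dtx4 and Nrarp. They were chosen by name, as rows of the expression table whose Ensembl identifier maps to one of these symbols. A row was found for 5 of the 6 among 17149 genes, and Dtx1 was not analysed here. RNA had been sequenced from LSK cells (lineage-negative, Sca-1-positive, Kit-positive progenitors) sorted from mouse bone marrow, in 24 libraries that fall into 8 groups of 3. CD135 (the receptor Flt3) separated a negative gate, called HSC here, from a positive gate, called LMPP (lymphoid-primed multipotent progenitor). Within each gate, cells were sorted as negative or positive for Rag2-GFP, a reporter of Rag2, which is a recombinase gene of lymphocytes. The genotype was Tal1 F/F with Rag2GFP (Ctrl), or Vav-iCre Tal1 F/F with Rag2GFP (KO). Both genotypes carry the floxed alleles and the reporter, the controls carry no Cre, and Vav-iCre acts in blood cells at large. Tal1 encodes a basic helix-loop-helix factor of blood stem cells and of the red cell lineage. The labels give no age and do not say whether replicates came from separate animals, so each p-value reflects only how far these samples spread, and that spread may be technical.

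Notch receptors are cut when a ligand on a neighbouring cell binds them. The released intracellular part enters the nucleus, joins the DNA-binding protein Rbpj and a Mastermind co-activator, and switches target genes on. In blood, Notch1 signalling commits progenitors to the T lineage, and it does so mainly in the thymus, where ligand is abundant. Notch2 is known for its part in marginal zone B cells and in some myeloid cells. Hes1 encodes a transcriptional repressor that is a direct target in many tissues. Dtx1 and Dtx4 encode Deltex proteins, which are E3 ubiquitin ligases that act on Notch. Nrarp encodes a small ankyrin repeat protein that is induced by Notch and restrains it.

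Notch1 (ENSMUSG00000026923) lies at chr2:26457903-26516663 on the minus strand of GRCm38 (mm10), and Notch2 (ENSMUSG00000027878) at chr3:98013527-98150361 on the plus strand. Dtx4 (ENSMUSG00000039982) lies at chr19:12466338-12501454 on the minus strand, Hes1 (ENSMUSG00000022528) at chr16:30064384-30067796 on the plus strand, and Nrarp (ENSMUSG00000078202) at chr2:25180758-25183339 on the plus strand. The values are counts per whole gene. Notch1 overlaps 2 opposite-strand genes that have rows in the table (0610009E02Rik and Gm13568), and Nrarp overlaps Gm38287 in the same way. The sources used here do not say whether counting used strand, so reads of such partners cannot be told apart.

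The promoters of both receptors and of Nrarp are shown because Notch1 passed in several comparisons while Notch2 and Nrarp passed in none. The sequences are from RefSeq (GRCm38.p6) and run 5′ to 3′ on the gene's strand, from 250 to 31 bases before the start that RefSeq annotates. For Notch1 that start lies inside the gene span given above, and so does its window. RefSeq promoter windows were found for 4 of the 6 genes. Capitals mark matches to any of the motifs searched on both strands. For Rbpj these were the core TGGGAA and a fuller form, TGTGGGAA, that contains the core. The GATA family, whose members act with Tal1, was searched as AGATAA. The E-box, which Tal1 binds together with partner proteins, was searched as CANNTG.
Notch1, chr2:26503853-26504072, minus strand: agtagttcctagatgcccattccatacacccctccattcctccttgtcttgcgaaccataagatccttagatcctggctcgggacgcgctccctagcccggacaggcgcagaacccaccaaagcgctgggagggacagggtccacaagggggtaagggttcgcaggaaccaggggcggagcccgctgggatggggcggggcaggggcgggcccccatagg
Notch2, chr3:98013288-98013507, plus strand: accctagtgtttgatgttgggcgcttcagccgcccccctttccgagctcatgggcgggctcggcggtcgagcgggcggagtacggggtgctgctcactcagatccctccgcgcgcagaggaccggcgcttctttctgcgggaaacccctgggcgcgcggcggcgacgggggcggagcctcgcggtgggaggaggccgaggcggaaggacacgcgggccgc
Nrarp, chr2:25180508-25180727, plus strand: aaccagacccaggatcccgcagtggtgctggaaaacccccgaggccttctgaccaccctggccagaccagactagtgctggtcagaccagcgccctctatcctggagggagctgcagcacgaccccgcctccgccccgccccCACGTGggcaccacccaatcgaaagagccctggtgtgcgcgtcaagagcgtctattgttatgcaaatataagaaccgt

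Only the Nrarp window held a match, an E-box from 108 to 103 bases before the start. An E-box was found in 62.1% of 32851 RefSeq promoter windows of the same length, TGGGAA in 19.4%, TGTGGGAA in 1.24% and AGATAA in 9.04%. The absence of a match says only that these letters are not in these 220 bases.

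The values are the authors' normalised counts, and the library totals ran from 6906083 to 11969093. Read depth is unknown, since the values are not whole reads. The Ctrl HSC GFP-positive replicate 2 and the KO LMPP GFP-positive replicate 3 stood apart by detection, with 11982 and 11684 genes above a value of 1 against 13583 to 15957 in the other 22 libraries. The targeted gene, Tal1, ran from 326 to 2109 in the 12 Ctrl libraries and from 0.499 to 518 in the 12 KO libraries. Some libraries, KO LMPP GFP-positive replicate 3 among them, list no gene at 0, so a small value above 0 need not mean reads. Tal1 fell by 2.12 ± 0.35 (SE) on the log2 scale on average over the 4 populations (limma, adjusted p = 0.00222), and the Ctrl and KO libraries of each population did not overlap. Flt3, which encodes CD135, ran from 177 to 3256 in the CD135-negative libraries and from 3623 to 8621 in the CD135-positive ones. Rag2 rose by 3.65 ± 0.26 (SE) with the reporter (adjusted p = 1.45e-09). All 7 LSK markers listed (Kit, Ly6a, Mecom, Hlf, Procr, Flt3 and Cd34) were in the table, and their summed level was 1171 to 3664 ppm of the library total.

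Differences are on the scale log2(normalised count + 4.1), which understates changes of genes near or below 4.1, and a change is called when limma's p, adjusted by Benjamini-Hochberg over 16215 genes, is under 0.05. The 5 genes passed the filter on low values, Hes1 only through HSC libraries. Of 20 tests of a member between GFP-positive and GFP-negative cells, 6 passed, all of them rises of Notch1 or Dtx4, where 0.0555% to 2.72% of all genes tested passed in a comparison. Of 20 tests between LMPP and HSC, 4 passed (3 rises of Notch1 and 1 fall of Hes1), against 0.37% to 0.894% of all genes. Of 20 tests between KO and Ctrl, 1 passed, a rise of Hes1, against 0.0432% to 0.432% of all genes. Without the 2 libraries of low detection these counts were 6, 5 and 1.

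**Figure D1:**
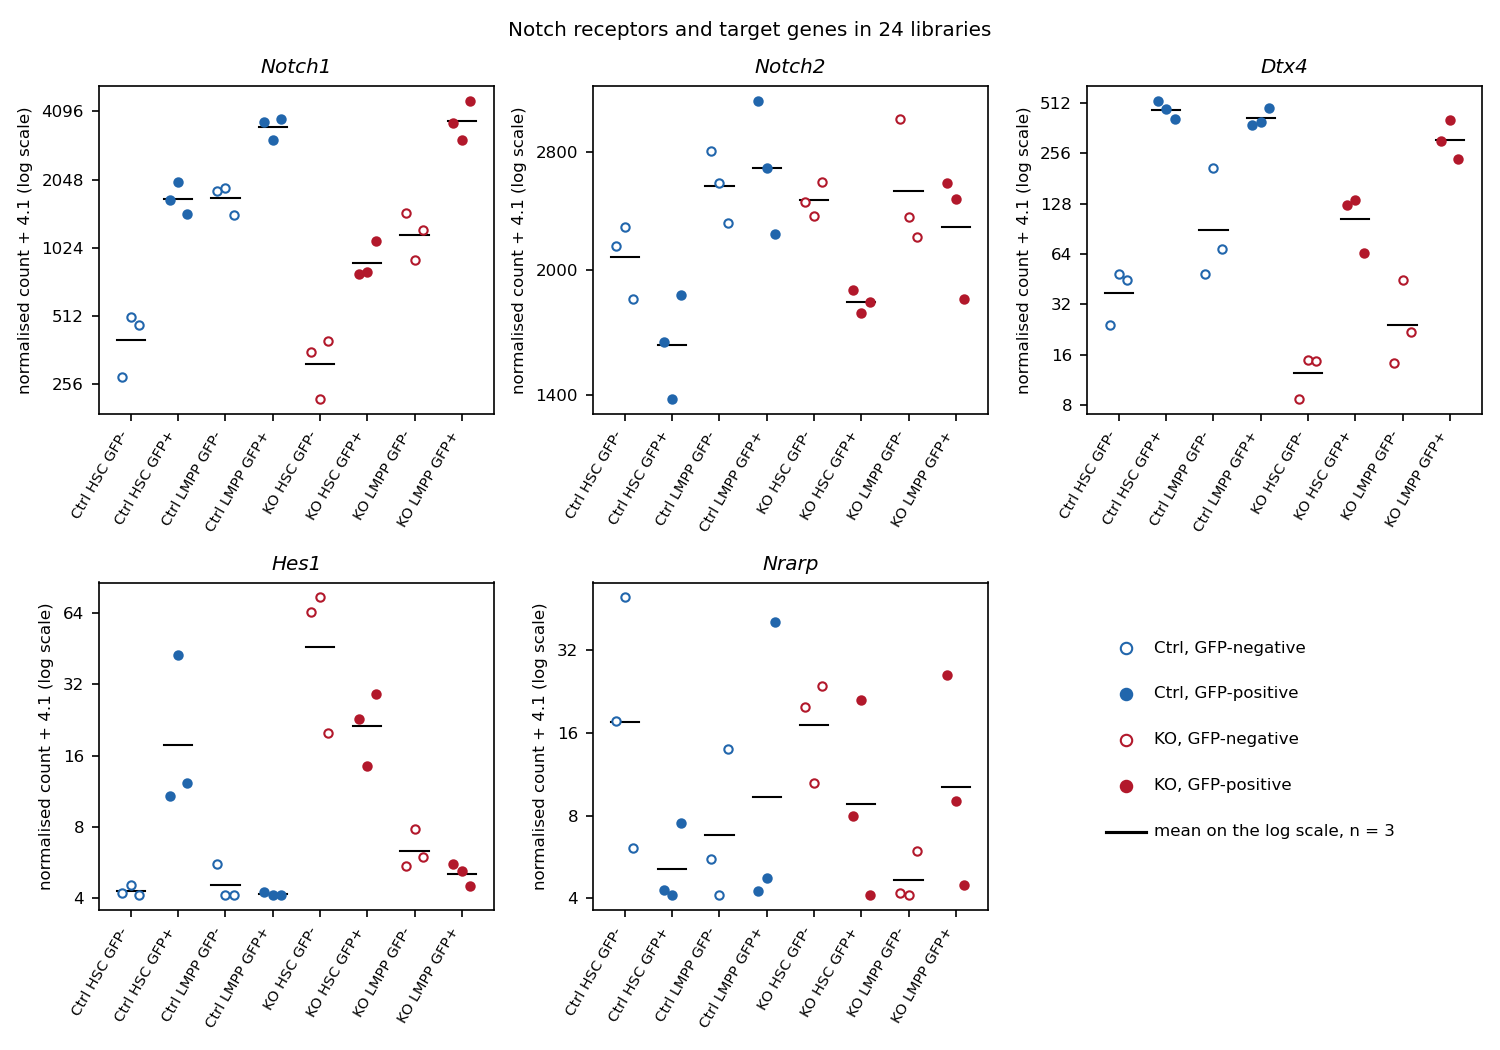
Normalised counts (plus 4.1, log axis) of Notch1, Notch2, Dtx4, Hes1 and Nrarp in each of the 24 libraries, by genotype (colour), gate (position) and reporter (open or filled). Notch1 and Dtx4 are higher in the filled groups of each gate, Notch2 stays between 1382 and 3238 in all libraries, and Hes1 is near 0 in Ctrl HSC GFP-negative and all Ctrl LMPP libraries.

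Notch1 varied with both sort gates. It was lowest in GFP-negative HSC and highest in GFP-positive LMPP of both genotypes. In Ctrl HSC, Notch1 read 270, 502 and 464 normalised counts in the GFP-negative libraries and 1651, 1998 and 1445 in the GFP-positive ones. In KO HSC it read 349, 215 and 393 against 777, 796 and 1087. In both genotypes every GFP-positive HSC library lay above every GFP-negative one.
The rise was 2.07 ± 0.28 (SE, log2) in Ctrl HSC (limma, adjusted p = 1.37e-04, where 2.72% of all genes tested passed) and 1.49 ± 0.28 in KO HSC (adjusted p = 0.00839, 0.376% of genes passing). In LMPP, the GFP-negative libraries read 1819, 1871 and 1420 in Ctrl and 1452, 895 and 1218 in KO. The GFP-positive LMPP libraries read 3686, 3071 and 3786 in Ctrl and 3649, 3059 and 4556 in KO, again above all GFP-negative ones.
Notch1 rose by 1.66 ± 0.28 in KO LMPP (adjusted p = 0.00242, 1.15% of genes passing). In Ctrl LMPP the difference of 1.05 ± 0.28 did not pass (adjusted p = 0.256, 0.0555% of genes passing), and neither did that of any other member. The median difference over all genes tested was -0.24 in Ctrl HSC and -0.22 in KO LMPP, so the rises stand against a small overall shift the other way. The average rise over the 4 comparisons was 1.57 ± 0.14 (adjusted p = 7.22e-08, 7.23% of genes passing), and it passed without any 1 of the 24 libraries.

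When the Ctrl HSC and KO LMPP comparisons were each fitted on their own 6 libraries, neither Notch1 nor Dtx4 passed in them. The KO HSC call of Notch1 was lost without KO HSC GFP-negative replicate 2 or GFP-positive replicate 3 (adjusted p up to 0.139), and when libraries were shifted to a common median.

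Notch1 also differed between the CD135 gates. It rose from HSC to LMPP by 2.08 ± 0.28 in Ctrl GFP-negative cells (adjusted p = 7.12e-04, 0.37% of genes passing) and by 1.90 ± 0.28 in KO GFP-negative cells (adjusted p = 5.41e-04, 0.876% of genes passing). Among GFP-positive cells it rose by 2.08 ± 0.28 in KO (adjusted p = 1.78e-04, 0.611% of genes passing), a call lost in a fit of those 6 libraries alone. In Ctrl the difference of 1.05 ± 0.28 did not pass (adjusted p = 0.0654, 0.894% of genes passing), although the groups did not overlap, and it passed without the 2 libraries of low detection. The average over the 4 comparisons was a rise of 1.78 ± 0.14 (adjusted p = 9.57e-09, 4.18% of genes passing). In order of mean level, Ctrl LMPP GFP-negative (1703 ± 247, SD, n = 3) and Ctrl HSC GFP-positive (1698 ± 279) stood side by side, and their libraries overlapped. The order broke without overlap only below Ctrl LMPP GFP-positive (3515 ± 387) and below KO HSC GFP-positive (887 ± 174).

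By genotype, no difference of Notch1 passed. The widest was in GFP-positive HSC, where all 3 KO libraries lay below all 3 Ctrl libraries, a difference of -0.94 ± 0.28 (adjusted p = 0.130, 0.432% of genes passing). It was -0.36 ± 0.28 in GFP-negative HSC, -0.54 ± 0.28 in GFP-negative LMPP and 0.08 ± 0.28 in GFP-positive LMPP, and the libraries overlapped in these 3. The average of -0.44 had an SE of 0.14, a 95% confidence interval of -0.73 to -0.15 and an adjusted p of 0.292 (limma). That interval takes the 24 libraries as independent, while the labels share a number across the 4 populations of a genotype. With 1 mean per shared number (3 against 3), the SE was 0.18 and the adjusted p 0.847. All 3 KO means then lay below all 3 Ctrl means.

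Notch2 stayed within a narrower range, and no difference of it passed in any of the 19 comparisons. Its group means ran from 1623 ± 239 (Ctrl HSC GFP-positive) to 2708 ± 513 (Ctrl LMPP GFP-positive), and each group overlapped its neighbour in that order. Some groups further apart did not overlap, such as GFP-positive and GFP-negative KO HSC (1767 to 1888 against 2329 to 2567). The GFP-positive Ctrl HSC libraries read 1625, 1382 and 1860, and the GFP-negative ones 2142, 2262 and 1842. With the reporter, the average difference was -0.21, with a 95% confidence interval of -0.43 to 5.30e-04. Between LMPP and HSC it was 0.34 ± 0.10 (limma, adjusted p = 0.0627), largest in Ctrl GFP-positive cells at 0.73 ± 0.21 (adjusted p = 0.0820). This average between the gates passed in 4 of 9 other settings of the fit and was 0.33 to 0.35 in all 9. Between genotypes the average difference of Notch2 was 0.04, with an interval of -0.18 to 0.25. Its SE was 0.10, and 0.15 with 1 mean per shared number.

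The balance of the receptors therefore varied between groups, mainly through Notch1. Per kilobase of exon (14232 bases for Notch1 and 10782 for Notch2), Ctrl HSC GFP-negative cells had a mean level of 29.0 for Notch1 and 193 for Notch2. Ctrl LMPP GFP-positive cells had 247 for Notch1 and 251 for Notch2, and KO LMPP GFP-positive cells 264 and 212. The ratio of Notch1 to Notch2 counts, not scaled by length, was 0.200 ± 0.066 (SD, n = 3) in Ctrl HSC GFP-negative and 1.08 ± 0.339 in Ctrl HSC GFP-positive cells. In KO HSC it was 0.130 ± 0.033 and 0.486 ± 0.097. The ratio was thus lower in each KO GFP-positive HSC library (0.411 to 0.596) than in any Ctrl one (0.777 to 1.45). In LMPP it was 0.667 ± 0.058 (GFP-negative) and 1.33 ± 0.327 (GFP-positive) in Ctrl, and 0.471 ± 0.085 and 1.72 ± 0.662 in KO.

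**Figure D2:**
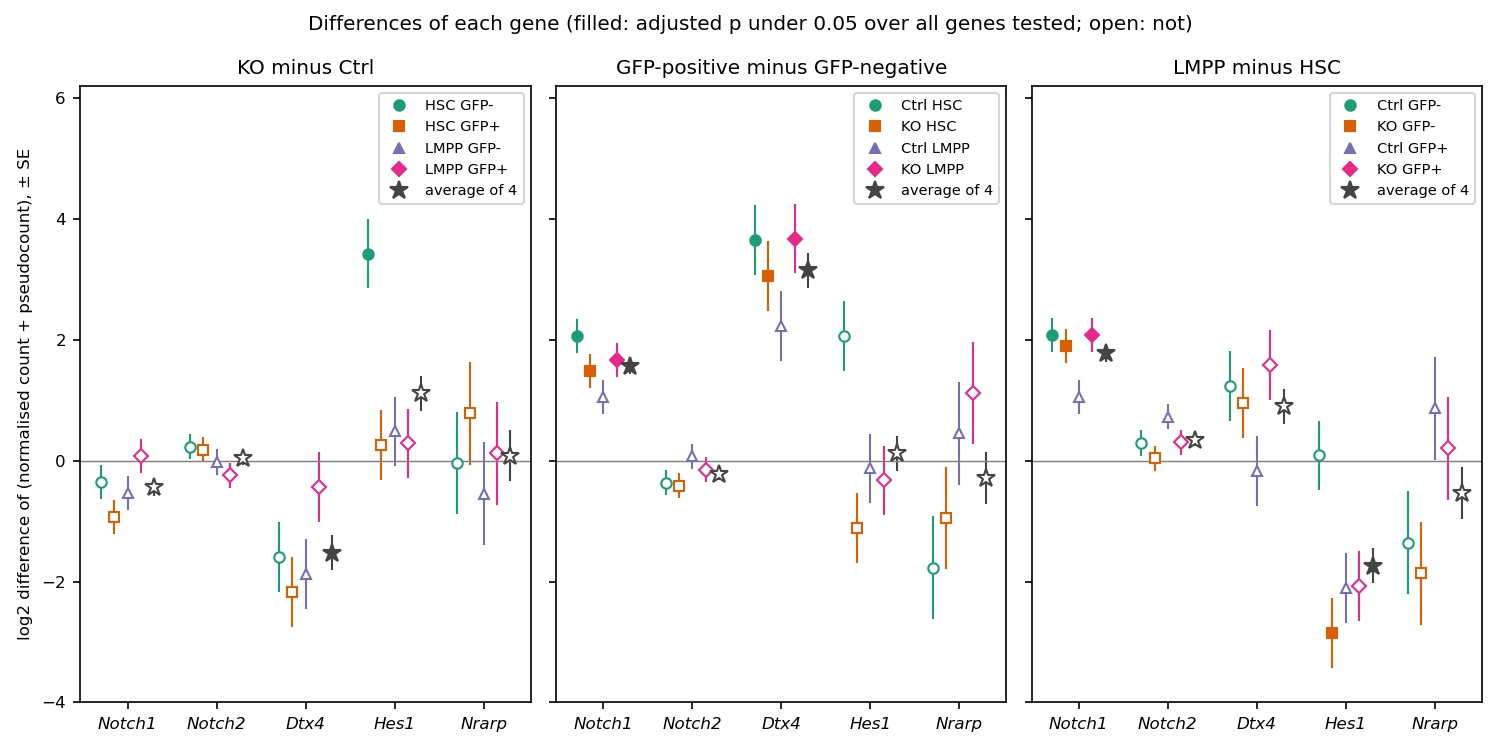
Differences of each gene on the log2 scale (± SE) for KO minus Ctrl, GFP-positive minus GFP-negative and LMPP minus HSC, in each population and on average, with filled symbols where the adjusted p was under 0.05. Notch1 and Dtx4 are filled for the reporter in 3 of 4 populations and on average, and the only filled averages by genotype and gate are Dtx4, Notch1 and Hes1.

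Dtx4, which encodes an E3 ligase of the Deltex family, was the only target among the members with a reporter difference that passed. In Ctrl HSC it read 19.9, 44.5 and 40.9 in GFP-negative libraries and 523, 467 and 409 in GFP-positive ones. In KO HSC the values were 4.59, 10.9 and 10.5 against 122, 130 and 61.2. In Ctrl LMPP they were 44.7, 205 and 64.2 against 376, 389 and 475, and in KO LMPP 10.2, 40.6 and 17.8 against 300, 402 and 232. In all 4 pairs each GFP-positive library was above each GFP-negative one.
Dtx4 rose by 3.64 ± 0.58 in Ctrl HSC (limma, adjusted p = 6.22e-04), by 3.06 ± 0.58 in KO HSC (adjusted p = 0.00839) and by 3.68 ± 0.58 in KO LMPP (adjusted p = 0.00126). The difference in Ctrl LMPP, 2.23 ± 0.58, did not pass (adjusted p = 0.223). The average rise was 3.15 ± 0.29 (adjusted p = 8.72e-08), and it passed without any 1 library. The KO HSC call was lost without GFP-negative replicate 1, GFP-positive replicate 1 or GFP-positive replicate 2 (adjusted p up to 0.0907). The Ctrl LMPP differences of both Notch1 and Dtx4 passed with estimated array weights and in a fit of those 6 libraries alone.

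Markers of neutrophils (Elane, Mpo, Ctsg, Prtn3 and S100a8, 5 of 5 in the table) differed with the reporter in the same HSC comparisons. Their summed level was 1444 to 3170 ppm in Ctrl HSC GFP-negative and 4672 to 13200 ppm in GFP-positive libraries, and 507 to 742 against 2165 to 7611 ppm in KO HSC. In LMPP it was 622 to 1087 against 599 to 1402 ppm in Ctrl and 145 to 163 against 173 to 847 ppm in KO. Markers of megakaryocytes (4 of 4 in the table) went the other way in HSC, from 105 to 150 ppm in GFP-negative to 5.87 to 14.3 ppm in GFP-positive Ctrl libraries, and from 79.5 to 169 to 4.75 to 26.2 ppm in KO. So did erythroid markers, from 23.9 to 56.7 to at most 14.4 ppm in Ctrl HSC and from 286 to 401 to 53.4 to 155 ppm in KO HSC. The part of these marker groups in the rise of Dtx4 and Notch1 was not tested. In sorted bulk cells, fewer cells of a type and less RNA per cell cannot be told apart.

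Between genotypes, Dtx4 was the only member of which the average difference passed. The KO means were 8.65 ± 3.52 in GFP-negative HSC, 104 ± 37.6 in GFP-positive HSC and 22.9 ± 15.8 in GFP-negative LMPP, against 35.1 ± 13.3, 467 ± 57.0 and 105 ± 87.3 in Ctrl. In these 3 populations every KO library lay below every Ctrl library. In GFP-positive LMPP the KO mean was 312 ± 85.5 and the Ctrl mean 414 ± 53.8, and the libraries overlapped. The differences were -1.60, -2.18, -1.88 and -0.43 (SE 0.58 each), none of which passed alone (the lowest adjusted p was 0.0878, in GFP-positive HSC).
The average over the 4 populations fell by 1.52 ± 0.29 on the log2 scale (adjusted p = 0.00966, 0.469% of genes passing) and passed without any 1 of the 24 libraries. The labels share a number across the 4 populations of a genotype, and with 1 mean per number (3 against 3) the same average had an adjusted p of 0.212 and an unadjusted p of 7.96e-04. All 3 KO means then lay below all 3 Ctrl means, and 18 of 16215 genes passed. Markers of other cells differed with genotype as well. The sum of 5 erythroid markers (5 of 5 in the table) was higher in KO in all 4 populations with no overlap, for example 7.12 to 26.6 ppm in Ctrl and 186 to 260 ppm in KO GFP-negative LMPP. The neutrophil sum was lower in KO with no overlap in GFP-negative HSC and GFP-negative LMPP, and overlapped in both GFP-positive populations. Their part in the fall of Dtx4 was not tested.

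Between the CD135 gates no difference of Dtx4 passed: the average was 0.90 ± 0.29 (limma, adjusted p = 0.0838). In 2 of 9 other settings of the fit this average did pass. Every LMPP library lay above every HSC one in Ctrl GFP-negative cells (1.24 ± 0.58) and in KO GFP-positive cells (1.58 ± 0.58). The libraries overlapped in KO GFP-negative cells (0.96 ± 0.58) and in Ctrl GFP-positive cells (-0.17 ± 0.58). The order of Dtx4 means was not that of Notch1 means. Ctrl HSC GFP-positive cells held the highest Dtx4 mean, 467, with a Notch1 mean of 1698. Ctrl LMPP GFP-positive cells had a Notch1 mean of 3515 and a Dtx4 mean of 414, and the Dtx4 libraries of these groups overlapped.

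Hes1 was near the bottom of the scale in most groups. It read 0.0853, 0.425 and 0 in Ctrl HSC GFP-negative libraries, and 60.6, 70.5 and 15.9 in KO HSC GFP-negative ones, so the groups did not overlap. Hes1 rose there by 3.43 ± 0.58 (limma, adjusted p = 0.00820, 0.16% of genes passing). The size depends on the pseudocount: it was 5.42 with 0.1 ppm and 1.86 with 2 ppm, and it passed with both. This call rested on single libraries and on the filter: it was lost without KO HSC GFP-negative replicate 1 or replicate 2 (adjusted p up to 0.151), it was lost in a fit of those 6 libraries alone, and Hes1 did not pass a filter of 5 ppm. Mast cell markers were higher in the same libraries: the sum of Cma1, Mcpt4, Tpsb2, Cpa3, Ms4a2 and Fcer1a was 22.8 to 53.5 ppm in Ctrl and 276 to 1210 ppm in KO HSC GFP-negative libraries. All 6 were at 1 ppm or more in each of these KO libraries, while 3 of the 6 were under 1 ppm in each of these Ctrl libraries. Erythroid markers (5 genes) summed to 23.9 to 56.7 ppm in Ctrl and 286 to 401 ppm in KO. The mast cell sum was also higher in KO in GFP-positive HSC (205 to 312 against 30.3 to 147 ppm). There 3 of the 6 markers (Mcpt4, Tpsb2 and Fcer1a) were under 1 ppm in every KO library, and 5 of the 6 in every Ctrl library. The sum was higher in KO GFP-negative LMPP too (3.74 to 349 against 0.0987 to 0.475 ppm), with 2 of the 6 at 1 ppm or more in every KO library. In those populations Hes1 overlapped between genotypes. In GFP-positive LMPP the mast cell sum was lower in KO (0.268 to 0.405 against 0.740 to 2.80 ppm). The part of these marker sets in the Hes1 difference was not tested.

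In GFP-positive HSC, Hes1 read 6.72, 38.6 and 8.13 in Ctrl and 18.8, 10.3 and 25.1 in KO, with overlap. The Ctrl value of 38.6 belongs to a library of low detection. The difference between GFP-positive and GFP-negative Ctrl HSC was 2.06 ± 0.58 and did not pass (limma, adjusted p = 0.0511), although the groups did not overlap. It passed in 2 of 8 other settings of the fit: a pseudocount of 0.1 ppm, and libraries shifted to a common median. Its size ran from 0.93 to 3.83 over these 8. In LMPP, Hes1 read at most 1.45 in Ctrl and at most 3.74 in KO, and 4 of the 6 Ctrl LMPP libraries list it at 0. Ctrl LMPP GFP-negative replicate 1 (1.45) and GFP-positive replicate 1 (0.150) list no gene at 0, so these values need not mean reads. Hes1 fell from HSC to LMPP by 2.85 ± 0.58 in KO GFP-negative cells (adjusted p = 0.0106), a call lost without KO HSC GFP-negative replicate 1 or 2 or KO LMPP GFP-negative replicate 1 (adjusted p up to 0.111). With a pseudocount of 2 ppm this fall was -1.68. On average Hes1 fell by 1.74 ± 0.29 (adjusted p = 3.82e-04), a value of -2.73 with a pseudocount of 0.1 ppm and -0.890 with 2 ppm, both passing. In LMPP it reached at most 0.422 ppm (KO GFP-negative replicate 2), so Hes1 passed the filter on low values only through HSC libraries. The fall in KO GFP-negative cells and the average fall also passed with no such filter. The average difference between KO and Ctrl was 1.11 ± 0.29 and did not pass (limma, adjusted p = 0.101). With 1 mean per shared number (3 against 3), its SE was 0.35 and its adjusted p 0.531, and all 3 KO means lay above all 3 Ctrl means.

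No difference of Nrarp passed in any comparison. Its values ran from 0 to 45.5, and within single groups they spread nearly as widely: 13.6, 45.5 and 1.995 in Ctrl HSC GFP-negative, and 0.143, 0.627 and 36.4 in Ctrl LMPP GFP-positive libraries. In KO GFP-negative cells the LMPP libraries (0 to 1.85) lay below the HSC ones (6.41 to 19.5), a difference of -1.87 (adjusted p = 0.537). The difference with the reporter in Ctrl HSC was -1.77 (adjusted p = 0.276). Both had an unadjusted p under 0.05. The SE of 0.85 on the log2 scale for a single comparison was the largest of the 5 genes. The 95% confidence interval of the KO minus Ctrl difference in GFP-negative HSC, for example, ran from -1.79 to 1.71.

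No member passed an interaction test, which asks whether the reporter or gate difference changed with genotype. By limma, 0.00617% of genes passed for genotype by reporter in HSC, 0% in LMPP, 0% for genotype by gate in GFP-negative cells and 0.0308% in GFP-positive cells. At an unadjusted p under 0.05, the members counted 1, 0, 1 and 2 of 5, and all genes counted 1153, 531, 384 and 2030 of 16215. For genotype by reporter in HSC this was Hes1 (-3.17 ± 0.81, adjusted p = 0.382, and -5.06 to -1.75 in other settings of the fit). For genotype by gate it was Hes1 in GFP-negative cells (-2.94 ± 0.81). In GFP-positive cells it was Notch1 (1.02 ± 0.40, adjusted p = 0.319) and Dtx4 (1.75 ± 0.82, adjusted p = 0.381). The interaction of Notch1 with genotype and reporter was -0.58 ± 0.40 in HSC and 0.62 ± 0.40 in LMPP. For KO against Ctrl, no member passed in GFP-negative LMPP (0.0555% of genes passing) or GFP-positive LMPP (0.0432%), and 1 and 0 members had an unadjusted p under 0.05, against 402 and 1251 of 16215 genes.

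**Figure D3:**
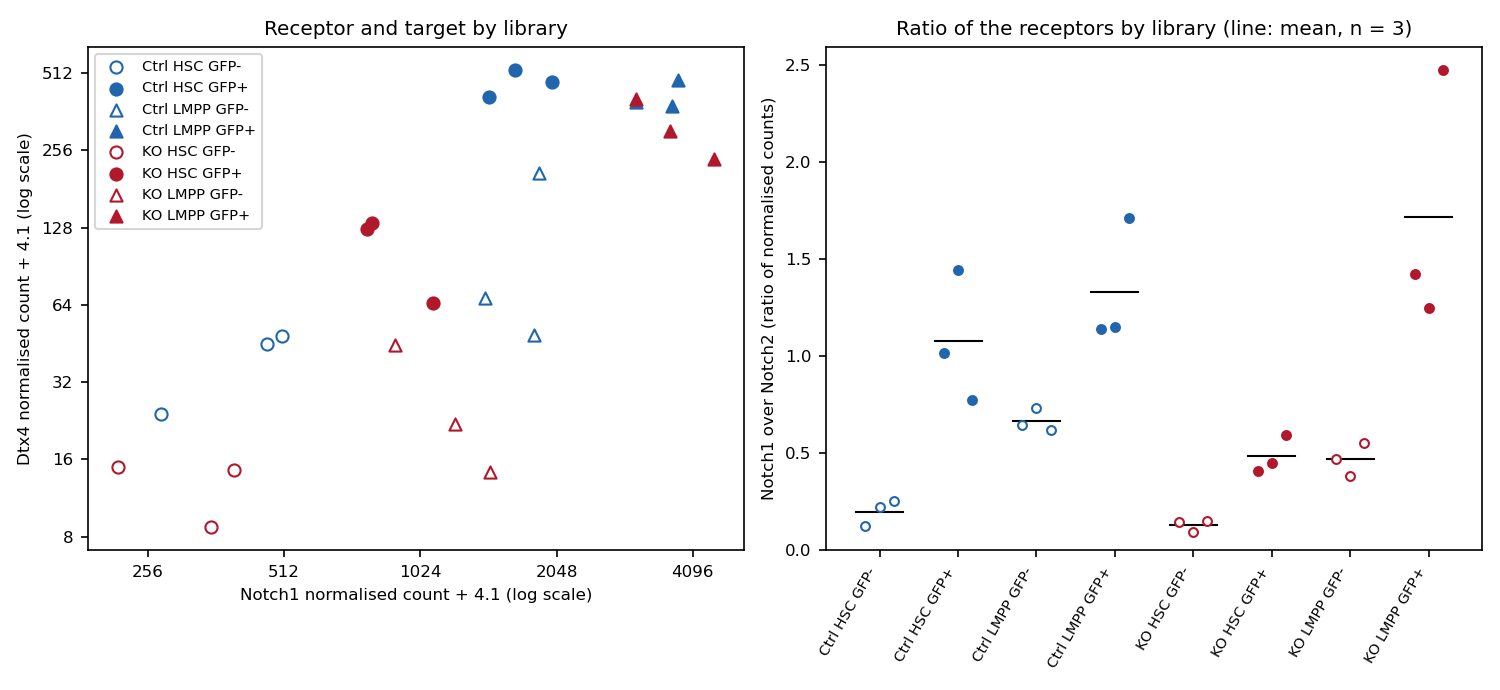
Left, Dtx4 against Notch1 in each library (normalised count plus 4.1, both axes logarithmic). Right, the ratio of Notch1 to Notch2 counts by library with the group mean (n = 3). At a like level of Notch1, GFP-positive HSC (filled circles) lie above GFP-negative LMPP (open triangles) of the same genotype in Dtx4, and KO HSC GFP-positive libraries have ratios of 0.411 to 0.596.

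Receptor and target levels were then set against each other within each library. The ratio of Dtx4 to Notch1 counts was 0.0835 ± 0.0084 in Ctrl HSC GFP-negative cells and 0.278 ± 0.042 in GFP-positive ones. In KO HSC it was 0.0301 ± 0.019 and 0.126 ± 0.060, so the KO ratio was lower in every library of both HSC pairs. In LMPP it was 0.0597 ± 0.044 and 0.118 ± 0.014 in Ctrl, and 0.0223 ± 0.020 and 0.0883 ± 0.041 in KO. The ratio was higher in GFP-positive than in GFP-negative means of each genotype and gate; it was given no test. Over the 24 libraries, which share their 8 groups, the log2 values of Notch1 and Dtx4 had a Pearson r of 0.776. It was 0.115 for Notch1 and Notch2, -0.491 for Notch1 and Hes1, and -0.315 for Notch1 and Nrarp.

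A combined measure took the mean log2 level per kilobase of Dtx4, Hes1 and Nrarp minus that of Notch1 and Notch2, after 4.1 was added to each value. Targets were below receptors in all 24 libraries. The gap was -3.98 ± 0.45 (SD, n = 3) in Ctrl HSC GFP-negative, -3.52 ± 0.29 in Ctrl HSC GFP-positive, -5.18 ± 0.39 in Ctrl LMPP GFP-negative and -4.89 ± 0.75 in Ctrl LMPP GFP-positive cells. In KO the corresponding values were -3.32 ± 0.38, -3.52 ± 0.53, -5.54 ± 0.64 and -4.81 ± 0.52. The average difference by genotype was 0.092, with single populations from -0.368 to 0.661. By reporter it was 0.320, with single comparisons from -0.202 to 0.731. From HSC to LMPP the gap differed by -1.52, since Notch1 was higher and Hes1 lower in LMPP. The size depends on the pseudocount: it was -1.97 with 0.1 ppm and -1.18 with 2 ppm. This measure has no test of its own, and its sign by genotype and by reporter depends on which genes enter it.

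A wider list of 61 Notch pathway genes was described in the same way: 53 were in the table and 50 were tested. In the 12 comparisons between single groups, 9 calls were made, by 5 genes, and 3 of the 9 were Bcl11b. The share of all genes passing in one of these comparisons was 0.0432% to 2.72%. With the reporter, on average, 5 of the 50 genes rose and 2 fell; the median difference was -0.10, and -0.14 over all genes tested, of which 7.23% passed. By genotype, 0 rose and 2 fell (median 0.02, and 0.03 over all genes, of which 0.469% passed). From HSC to LMPP, 0 rose and 2 fell (median -0.04, and 0.02 over all genes, of which 4.18% passed). Bcl11b is 1 gene in each of these 3 counts. Its calls are counted but not read as tests, since it passed the filter only through Ctrl HSC GFP-positive libraries.

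Among the other receptors and the ligands, little RNA was read. Notch3 reached at most 32.4 normalised counts and Notch4 at most 22.1 in any library. Notch3 fell with the reporter by 1.04 ± 0.30 on average (adjusted p = 0.0343), a call lost without any 1 of 10 libraries (adjusted p up to 0.0731) and without the 2 libraries of low detection. Of the ligands, Jag1 reached at most 40.1 and Jag2 at most 266, and neither passed in any comparison. No glycosyltransferase of the 5 tested (Lfng, Mfng, Rfng, Pofut1 and Poglut1, which modify the receptors) passed.

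Of 9 protease genes, Adam17, which encodes a sheddase able to cut Notch, rose with the reporter by 0.68 ± 0.18 on average (adjusted p = 0.0211). The gamma-secretase subunits tested did not pass. Of 7 genes of the nuclear complex, Maml3, a Mastermind co-activator, rose by 1.09 ± 0.24 (adjusted p = 0.00587), and Rbpj did not pass. Of 6 repressors, Tle3, a Groucho family co-repressor, rose by 0.63 ± 0.17 on average (adjusted p = 0.0205) and by 1.498 ± 0.33 in Ctrl HSC (adjusted p = 0.0134). The Ctrl HSC call was lost without GFP-negative replicate 1 or 3 or GFP-positive replicate 2 (adjusted p up to 0.0774). It was also lost with array weights and in a fit of those 6 libraries alone. None of 9 turnover and adaptor genes passed.

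**Figure D4:**
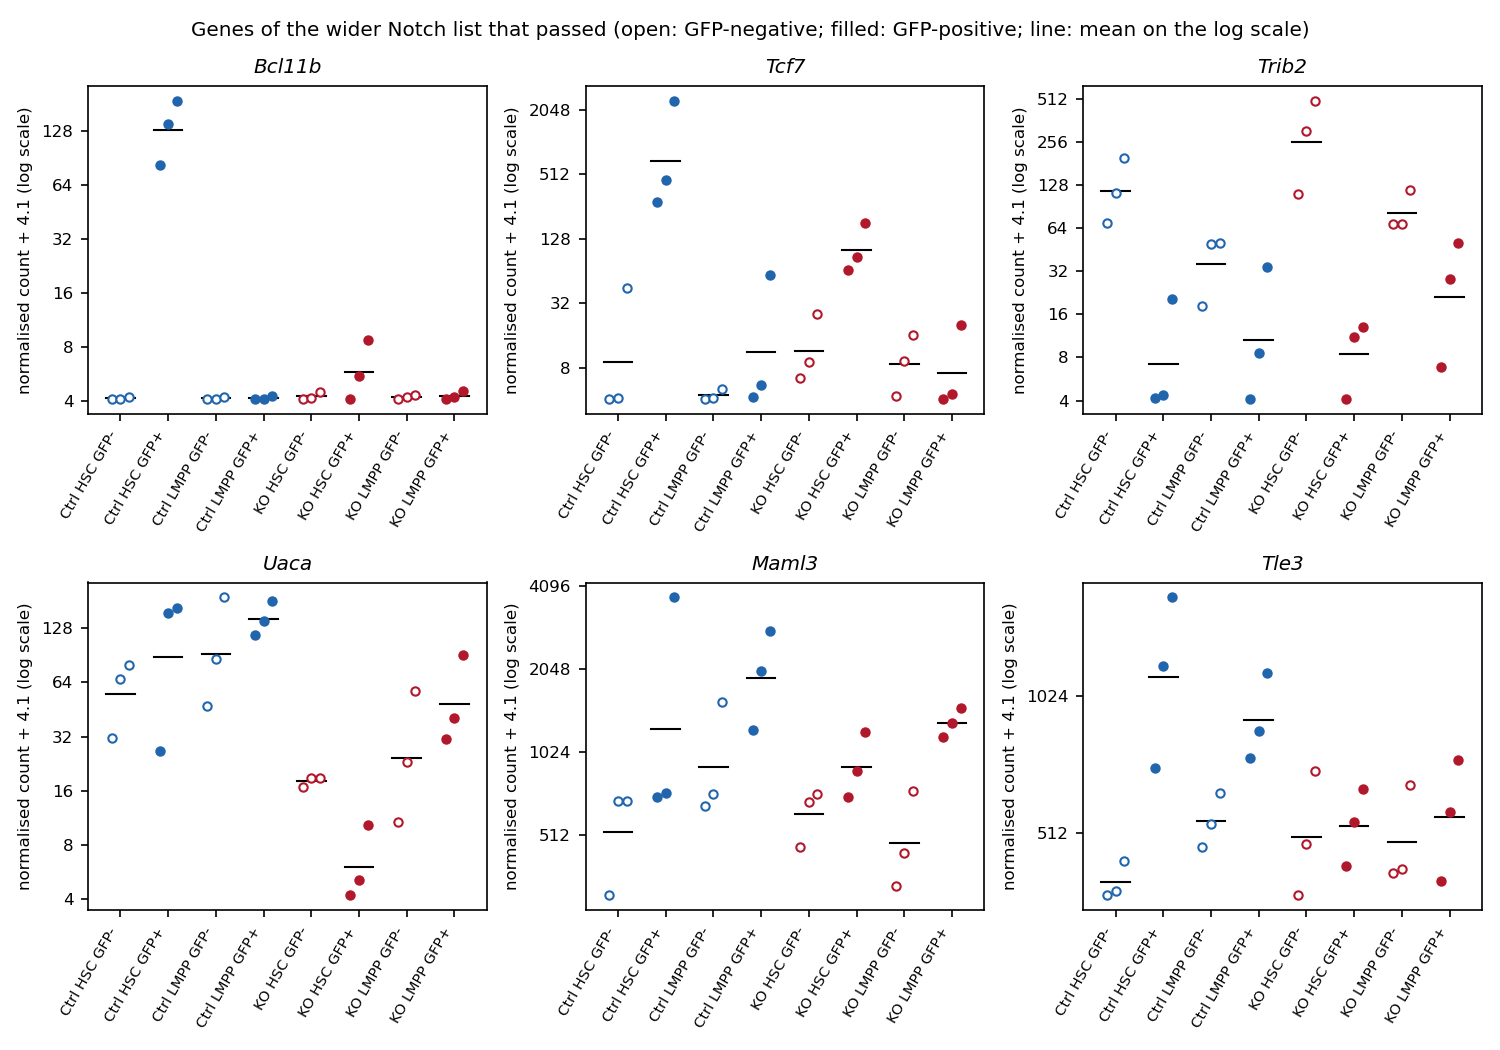
Normalised counts (plus 4.1, log axis) of 6 genes of the wider list by group, with the 3 libraries of a group drawn from lowest to highest. Bcl11b stands at 79.3 to 186 in Ctrl HSC GFP-positive libraries and at most 4.68 elsewhere, and Uaca has a lower mean in the KO group of each population.

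The other target genes on the list held the largest differences. Bcl11b and Tcf7 encode transcription factors of early T cells and are known downstream of Notch1 in the thymus. Bcl11b read 79.3, 136 and 186 in the 3 Ctrl HSC GFP-positive libraries and at most 4.68 in the other 21. It entered the test only through those 3 libraries: without any 1 of them it did not pass the filter on low values. Its differences are therefore given as a description with no test. They were 4.98 with the reporter in Ctrl HSC, -4.49 between KO and Ctrl GFP-positive HSC, and -4.97 between LMPP and HSC in Ctrl GFP-positive cells.
Tcf7 read 276, 444 and 2462 in the Ctrl HSC GFP-positive libraries, with at most 40.2 in the GFP-negative ones. It rose there by 6.21 ± 1.04 (adjusted p = 0.00111, lost in a fit of those 6 libraries alone), and in KO HSC the difference of 3.15 ± 1.04 did not pass (adjusted p = 0.364); the difference between genotypes in this rise had an adjusted p of 0.693. From Ctrl GFP-positive HSC to LMPP it fell by 5.92 ± 1.04 (adjusted p = 0.00376, lost with array weights and in a fit of those 6 libraries alone). T lineage markers (5 of 9 in the table, Bcl11b among them) summed to 22.0 to 42.4 ppm in Ctrl HSC GFP-positive and 10.1 to 31.6 ppm in GFP-negative libraries, which overlap. Their part in these differences was not tested.

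Trib2 encodes a pseudokinase that is a Notch target in leukaemia. It fell with the reporter by 3.15 ± 0.45 on average (adjusted p = 5.55e-05), by 4.01 ± 0.90 in Ctrl HSC (adjusted p = 0.0138) and by 4.92 ± 0.90 in KO HSC (adjusted p = 0.00728). Both HSC calls were lost without some single libraries: GFP-negative replicate 1 or 3 or GFP-positive replicate 2 in Ctrl (adjusted p up to 0.0833), and GFP-negative replicate 1 or 2 or GFP-positive replicate 3 in KO (adjusted p up to 0.106). The Ctrl HSC call was also lost with array weights and in a fit of those 6 libraries alone.
Uaca read 22.7, 151 and 160 in Ctrl and 0.105, 1.004 and 6.27 in KO GFP-positive HSC libraries. It fell in KO by 3.86 ± 0.78 there (adjusted p = 0.0234, lost without any 1 of the 3 KO libraries, adjusted p up to 0.0937) and by 2.24 ± 0.39 on average (adjusted p = 0.00439). The GFP-positive HSC call was also lost with a pseudocount of 2 ppm, with array weights and in a fit of those 6 libraries alone. With 1 mean per shared number the average had an adjusted p of 0.0679 for Uaca.

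The genes whose pattern over the 24 libraries was most like that of each member were taken from 9816 genes with a mean of at least 5 ppm. For Notch1 they were Dntt (terminal transferase, which adds bases at joints of antigen receptor genes; r = 0.977), Satb1 (a chromatin organiser; r = 0.943) and Tlr7 (a receptor for RNA; r = 0.915). For Dtx4 they were Clec12a (a lectin receptor of myeloid cells; r = 0.882), Kcng1 (a potassium channel subunit; r = 0.872) and Ncf1 (a subunit of the phagocyte oxidase; r = 0.868). For Hes1 they were Fyb (an adaptor protein; r = 0.800), Cpa3 (a mast cell protease; r = 0.799) and Alox5 (an enzyme of leukotriene synthesis; r = 0.795). Notch2 had no gene above 0.784 (Nicn1, Gngt2 and Mgea5 led), and Nrarp none above 0.675 (Nomo1, Pkn3 and Narf led). These correlations describe libraries that share groups and were ranked over many genes, so they carry no test.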

How the data were processed

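Gene-level RNA was measured in 24 libraries, grouped by the labels. The submitters' processing notes name Trimmomatic 0.33, HTSeq 0.6.1, edgeR without a version and the mm10 build. They give no role or order for these, and the sources used here name no aligner. The deposited signal values are the authors' normalised counts. Of the nonzero values 0.594% lie within 0.001 of a whole number, so reads were not recovered.

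Genes with at least 1 ppm of the library total in at least 3 libraries were kept (16215). Values were fitted as log2(value + 4.1), 4.1 being 0.5 ppm, with limma 3.58.1 (R 4.3.3, trended variance, 8 group means, 16 residual degrees of freedom) in 19 comparisons. The fit was tested on simulated data. Gene names and exon lengths are from GENCODE, and 16985 of 17149 identifiers matched. Alternatives were other pseudocounts, filters, scalings, weights, replicate blocks and libraries left out.

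The members and lists were chosen with earlier results of these data known. Named genes are all members, the listed pathway genes that passed in a single-group or averaged comparison, the 3 genes most correlated with each member, and Tal1 and Rag2 as checks. Flt3, Notch4, Jag1, Jag2 and the genes of the plot of the wider list were picked after values were seen.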

Additional observations from a re-analysis of the deposited data

Results flagged for a closer look

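Bcl11b, of the wider Notch list, had a difference between groups under the same contrast. Its reporter difference in HSC was lower in KO than in Ctrl, by an interaction on the log2 scale of -4.52. Its gate difference among GFP-positive cells was higher in KO than in Ctrl, by 4.53. Both values come from the 3 Ctrl HSC GFP-positive libraries, the only group in which the gene was above the filter on low values, so they are descriptions with no test. Both were under the threshold in the fit of all 24 libraries. Neither was with a pseudocount of 0.1 ppm, with array weights or with only the groups compared. Since the filter admitted the gene through that group alone, these outcomes are not read as tests.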

How the results depend on the processing

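The means per shared number were chosen after seeing the data. The member calls by genotype (1) became 0 with a filter of 5 ppm and 0 with only the groups compared, and 0 to 2 with 1 library left out. The calls by gate (4) were 3 to 7 with 1 library left out, the 7 without KO LMPP GFP-positive replicate 3. The calls by reporter (6) ran from 4 to 8 over all alternatives, and the interactions stayed at 0. The wider list's 9 calls became 2 with only the groups compared, and 6 to 13 with 1 library left out. The gap by genotype (0.092) was -0.520 without Hes1, and -0.035 with a pseudocount of 2 ppm. The gap by reporter (0.320) was -0.571 with Notch1 as the only receptor. The gap by gate (-1.52) was -0.877 without Hes1 and -2.23 with Notch1 alone. The genes entering the gap differ by construction; the cause of the other changes was not tested.

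With the title number as replicate block, the counts by genotype, reporter and gate were 1, 6 and 4. With the description number as replicate block, the counts by reporter and gate were 6 and 5. Over all genes, single-group comparisons called 7 to 441 genes, 4 to 1059 with array weights and 0 to 613 with only the groups compared. The description block cannot be fitted between genotypes, since the numbers lie within them, and was not run for the wider list; the count over that list and the gap were not computed with array weights. Deviations from group means correlated by -0.00912 to 0.300 over 36 same-number pairs (13 above 0.1), and 18 of 48 pairs with the same title number in the other genotype were above 0.1 too. Among libraries of other populations of their genotype, 23 of 24 correlated best with one of their own number, a hint from the data only. Depth in reads is unknown, which limits statements on Hes1 and Nrarp.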
